A study of Mus musculus with 8 samples.

Results

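The MHC class II genes described here are 7 genes chosen by name, H2-Aa, H2-Ab1, H2-Eb1, Cd74, Ciita, H2-DMa and H2-DMb1. Each was found once by its symbol among the 45706 genes of the RNA files, and all 7 passed the filter on low counts. RNA sequencing and ATAC-seq, which marks open chromatin by where a transposase can cut, were carried out on bone marrow cells of C57BL/6 mice. The sorted cells were LSK cells (negative for lineage markers, positive for Sca1 and Kit), the compartment of haematopoietic stem cells and multipotent progenitors. The labels give 2 genotypes, WT (wild type) and Hira KO, a conditional knockout of the gene for a chaperone that places histone H3.3 into chromatin. Each assay had 2 libraries per genotype label. The labels name no Cre driver, induction scheme, age or sex, and do not say whether libraries came from separate mice, so p-values measure only the spread between these libraries.

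The genotype labels were in doubt. In CPM (counts scaled to a common library total, with TMM factors), Hira itself measured 16.5 and 17.2 under the WT label and 24.4 and 23.3 under the KO label, so its level was not lower under the KO label (edgeR adjusted p = 0.180, log2 fold change 0.50 with SE 0.19). The names of the deposited files carried the opposite genotype from the titles. The terms labelled WT and labelled Hira KO follow the titles, and so does every direction below. If the titles of an assay are swapped, each direction in that assay is too. A swap in a single assay would also reverse how RNA and ATAC compare. Expected counts per RNA library, of which mitochondrially encoded genes took 40.8% to 53.1%, totalled 16595393 to 19846328. Labelled WT replicate 2 had 906 counts of the Y-linked gene Ddx3y against 1 or 2 in the other 3 libraries, and 1470 counts of Xist against 169234 to 232764. The labelled WT RNA libraries thus differed in sex-linked genes and cannot come from the same mouse. That difference is part of the spread under the WT label. Both labelled Hira KO libraries had high Xist and almost no Ddx3y counts, so the labels were also unbalanced in sex-linked genes. What this adds to the difference between labels was not tested. Among LSK markers, the receptor gene Kit had 5182 to 6417 counts and Cd34 had 2571 to 4220 counts in the 4 libraries. Ly6a, the gene for Sca1, had fewer, with 194 and 162 counts under the WT label against 446 and 559 under the KO label.

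MHC class II molecules carry peptides from engulfed material to the cell surface, where helper T cells read them. An alpha and a beta chain pair in the endoplasmic reticulum around the invariant chain, which Cd74 encodes. In late endosomes the invariant chain is trimmed and H2-DM, a heterodimer of the H2-DMa and H2-DMb products, swaps its remnant for peptide. H2-O, made from H2-Oa and H2-Ob, holds H2-DM back. Dendritic cells, B cells and macrophages are the classical carriers, and stem and progenitor cells have also been described to express class II. Transcription of the whole set depends on CIITA, the coactivator encoded by Ciita, which is recruited to promoters through an X box bound by RFX, an X2 box bound by CREB-like factors and a Y box bound by NF-Y.

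Promoter sequence is shown for H2-Aa, H2-Eb1 and H2-DMb1, because ATAC regions described below overlap it, and for H2-DMb2, the near copy of H2-DMb1. RefSeq's GRCm38.p6 table held windows for H2-Aa, H2-Eb1, H2-DMb1, H2-DMb2 and, at 2 starts, H2-DMa. The 150 bases before each annotated start are given, 5′ to 3′ on the strand of the gene, in the order chr17:34287824-34287973 (minus strand), chr17:34305717-34305866, chr17:34153041-34153190 and chr17:34145099-34145248 (plus strand). Capitals mark the motif letters that were searched on both strands.
H2-Aa: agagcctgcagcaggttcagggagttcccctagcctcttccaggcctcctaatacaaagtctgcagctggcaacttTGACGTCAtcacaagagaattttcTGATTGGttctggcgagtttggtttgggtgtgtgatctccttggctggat
H2-Eb1: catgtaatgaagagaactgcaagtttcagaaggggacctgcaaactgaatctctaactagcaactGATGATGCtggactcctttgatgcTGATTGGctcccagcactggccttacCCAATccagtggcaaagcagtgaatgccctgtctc
H2-DMb1: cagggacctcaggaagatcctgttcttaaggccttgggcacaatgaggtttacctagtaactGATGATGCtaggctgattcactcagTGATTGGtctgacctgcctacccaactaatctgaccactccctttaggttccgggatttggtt
H2-DMb2: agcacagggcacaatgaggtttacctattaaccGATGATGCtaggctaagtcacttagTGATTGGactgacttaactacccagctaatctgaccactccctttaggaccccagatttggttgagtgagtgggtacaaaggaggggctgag
The Y box core ATTGG was in all 4 stretches, beginning 48 bases before the start in H2-Aa (position -48), at -59 in H2-Eb1, at -61 in H2-DMb1 and at -90 in H2-DMb2. It was in 37.4% of the 32851 promoter windows of the table, so its presence alone is common. Each of these copies sat in the longer run TGATTGG, which 7.82% of windows hold and which contains ATTGG, and H2-Eb1 had another ATTGG on the opposite strand at -35. Upstream of it, H2-Eb1, H2-DMb1 and H2-DMb2 shared the run GATGATGC, at -85, -88 and -117, found in 0.703% of windows. H2-Aa carried instead the X2 core CGTCA on both strands, overlapping at -74 and -71, and 20.8% of windows hold this core. The X box letters ACAGATG (5.01% of windows) matched only H2-Aa, on the opposite strand at -232, outside the stretch shown and far upstream of its X2 core. The runs TGATTGG and GATGATGC were chosen after the sequences had been read. Between H2-DMb1 and H2-DMb2 106 of 179 aligned columns (59.2%) were identical, against 45.7% to 55.6% for the other pairs. Gap columns were counted as not identical. The run GATGATGC lay at -88 in H2-DMb1 and at -117 in H2-DMb2, so their 150-base stretches are shifted against each other. The share therefore understates their likeness where they overlap.

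Levels can be compared between genes only per length, so TPM, which scales counts by transcript length and library total, is used for their order. In labelled WT, Cd74 was the most abundant member with 205 ± 84.0 TPM (mean ± SD, n = 2), followed by H2-Aa with 125 ± 64.9 and H2-Ab1 with 108 ± 31.1. H2-DMa stood at 33.7 ± 14.4 TPM and H2-Eb1 at 16.7 ± 10.02, and H2-DMb1 (4.87 ± 4.10) and Ciita (1.55 ± 0.163) were lowest. H2-Aa and H2-Ab1 could not be ordered against each other, since H2-Aa was the higher in replicate 1 and the lower in replicate 2. In labelled Hira KO the means were 80.8 ± 47.9 TPM for Cd74, 63.4 ± 27.0 for H2-Ab1, 46.6 ± 6.14 for H2-Aa and 38.8 ± 10.7 for H2-DMa. There H2-Eb1 (7.52 ± 0.757), H2-DMb1 (5.98 ± 2.55) and Ciita (0.890 ± 0.0141) stayed at the bottom. Among all tested genes of the same library, the TPM of Cd74 ranked at percentiles 93.9 to 98.6 and that of Ciita at 14.4 to 26.1. The partner chain gene H2-Ea, which RefSeq lists as a transcribed pseudogene, had 0 counts in 3 libraries and 2 in labelled Hira KO replicate 2. H2-Eb1, which encodes the beta chain of the I-E molecule, thus had almost no counts of its alpha chain partner beside it.

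The comparison between genotype labels asked whether class II transcripts differ between LSK cells labelled WT and those labelled Hira KO. The chain genes H2-Aa, H2-Ab1 and H2-Eb1, the invariant chain gene Cd74 and Ciita had lower CPM in both labelled Hira KO libraries than in both labelled WT libraries. The subunits of the peptide exchanger, H2-DMa and H2-DMb1, had higher CPM in both. In TPM the labels overlapped for these genes. H2-DMa had 43.8 and 23.5 TPM under the WT label against 46.4 and 31.2 under the KO label. H2-DMb1 had 7.77 and 1.97 TPM against 7.78 and 4.18. None of the 7 passed edgeR's quasi-likelihood test over all genes (Benjamini-Hochberg adjusted p below 0.05), against 1.32% of 16258 tested genes called higher and 0.48% called lower. Unadjusted, 4 of 7 had p below 0.05, all lower, where 10.6% of all tested genes did so. The groups' CPM did not overlap with labelled Hira KO lower in 5 members, against 27.8% of tested genes, and with labelled Hira KO higher in 2 members, against 28.3%. The median log2 fold change was -0.88 over the members and 0.01 over all tested genes. In bulk RNA, fewer cells of a type and less RNA per cell cannot be told apart.

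**Figure D1:**
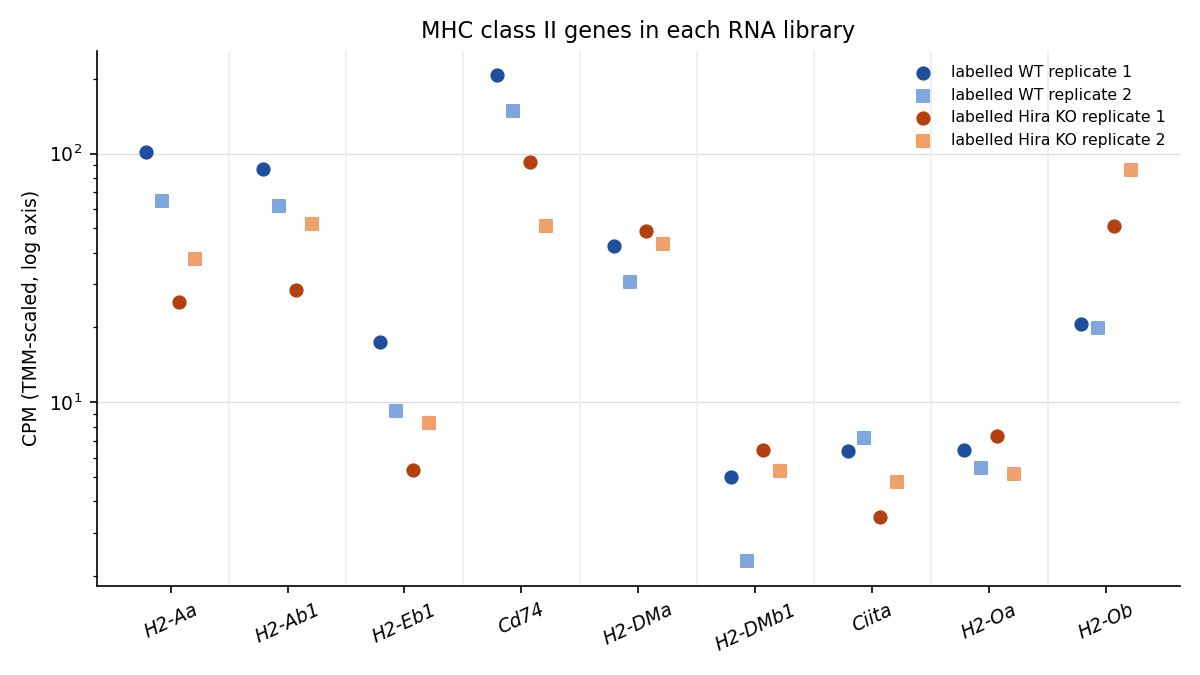
CPM (log axis) of the 7 members and of H2-Oa and H2-Ob in each of the 4 RNA libraries, 1 point per library. The chain genes, Cd74 and Ciita lie lower in both labelled Hira KO libraries, H2-DMa, H2-DMb1 and H2-Ob lie higher, and H2-Oa overlaps.

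H2-Aa encodes the alpha chain of I-A, the class II molecule of C57BL/6 mice. Labelled WT replicates 1 and 2 had 101 and 64.6 CPM of it, and labelled Hira KO replicates 1 and 2 had 25.3 and 37.6 CPM. Both labelled Hira KO values were below the lower labelled WT value. The log2 fold change was -1.40 (labelled Hira KO over labelled WT, SE 0.28, 95% interval -2.08 to -0.72, edgeR adjusted p = 0.0631). H2-Ab1, the beta chain of I-A, stood at 87.0 and 61.3 CPM against 28.4 and 52.3 CPM. Its lower labelled WT library and higher labelled Hira KO library were close, and the log2 fold change was -0.88 (SE 0.33, edgeR adjusted p = 0.185). H2-Eb1 had 17.5 and 9.25 CPM against 5.34 and 8.29 CPM, again with neighbouring values between replicate 2 of each label. Its log2 fold change was -0.97 (SE 0.38, edgeR adjusted p = 0.191).

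Cd74, the invariant chain, had 207 and 149 CPM under the WT label against 92.6 and 51.3 CPM under the KO label. The groups were well apart, but the labelled Hira KO libraries differed from each other in the opposite order from the chain genes. The log2 fold change was -1.30 (SE 0.32, 95% interval -2.08 to -0.53, edgeR adjusted p = 0.0920). Within a library, the TPM of Cd74 over that of H2-Ab1 was 2.03 and 1.69 in labelled WT, 2.59 in labelled Hira KO replicate 1 and 0.569 in replicate 2. Cd74 and the beta chain gene therefore did not keep a fixed ratio between the labelled Hira KO libraries. For H2-Aa over H2-Eb1 the ratio ran from 6.06 to 8.24 in the 4 libraries.

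Ciita, the coactivator gene, had 6.40 and 7.22 CPM against 3.47 and 4.81 CPM, from 67.2 to 132 expected counts per library. Its log2 fold change was -0.72 (SE 0.33, 95% interval -1.50 to 0.06, edgeR adjusted p = 0.250). H2-DMa had 42.3 and 30.5 CPM under the WT label against 49.1 and 43.2 CPM under the KO label. The 2 groups were separated by less than 1 CPM, and the log2 fold change was 0.34 (SE 0.21, 95% interval -0.14 to 0.82, edgeR adjusted p = 0.366). H2-DMb1 had 5.03 and 2.30 CPM against 6.42 and 5.29 CPM, and its log2 fold change was 0.68 (SE 0.44, edgeR adjusted p = 0.402). Its expected counts, 94.8 and 42.5 against 124 and 87.8, were not whole numbers, and how reads were divided between H2-DMb1 and its near copy H2-DMb2 is uncertain. H2-DMb2 itself had expected counts of 32.9 to 41.7. The TPM ratio of H2-DMa to H2-Ab1 was 0.336 and 0.272 under the WT label against 1.05 and 0.379 under the KO label, without overlap, and was not tested.

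**Figure D2:**
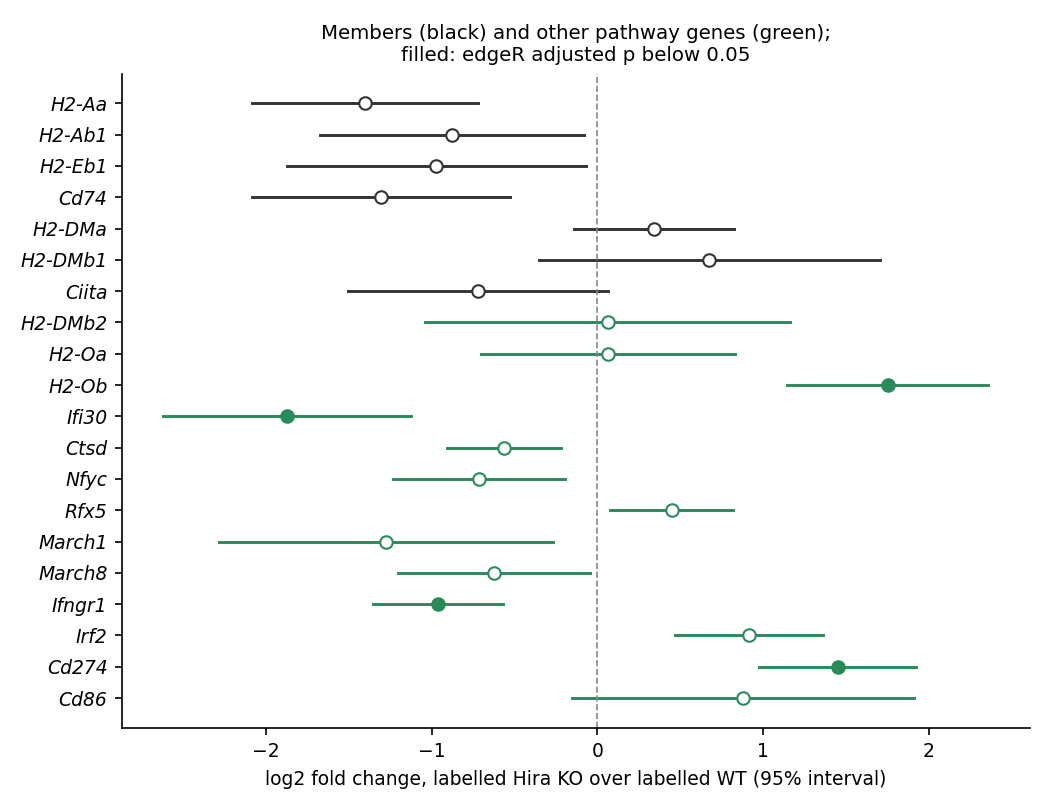
Log2 fold change of labelled Hira KO over labelled WT with its 95% interval from edgeR, for the members (black) and other genes of the pathway (green), filled where the adjusted p was below 0.05. No member is filled, and H2-Ob, Ifi30, Ifngr1 and Cd274 are.

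Calls for H2-Aa and Cd74 depended on the tool. DESeq2 gave adjusted p-values of 0.000343 for H2-Aa and 0.00103 for Cd74, and called no other member. Limma on log2(TPM + 1) called the same members, with 0.0464 and 0.0294, on a scale that understates changes of low genes. Over all 16258 tested genes DESeq2 called 575 lower and 923 higher. Limma on that scale called 262 lower and 392 higher. Leaving out a library moved single members across the threshold. Without labelled Hira KO replicate 1 Cd74 had an edgeR adjusted p of 0.00346 (log2 fold change -1.81), and without replicate 2 of that label H2-Ab1 had 0.0159 (-1.39). Fits with 1 labelled WT library, which take its spread from the other label, called almost nothing: 4 of 17650 genes without labelled WT replicate 1 and 2 of 17520 without replicate 2, and no member. Without labelled WT replicate 1 the log2 fold change of H2-Eb1 was -0.46 in place of -0.97 and that of H2-DMb1 1.34 in place of 0.68. Without labelled WT replicate 2, the library with Ddx3y counts, H2-DMb1 stood at 0.21. The sign of each member stayed the same in the main fit and all 12 alternatives, which reuse the same libraries. As the CPM of the labels did not overlap for any member, leaving out a library could hardly reverse a sign.

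Other genes of the pathway were read from lists holding 65 genes of the files, of which 62 were tested, 2 called higher and 2 called lower by edgeR. Without either labelled WT library none of these 4 was called, in the fits that called 4 and 2 genes in all, and their log2 fold changes were then 1.77 and 1.71 for H2-Ob, -1.55 and -2.16 for Ifi30, -1.01 and -0.94 for Ifngr1, and 1.63 and 1.27 for Cd274. Over all 62 tested pathway genes the median log2 fold change was 0.07. Among class II genes outside the members, H2-Ob rose. Its CPM went from 20.7 and 19.9 to 51.3 and 85.5, a log2 fold change of 1.75 (SE 0.26, edgeR adjusted p = 0.0347). H2-Ob encodes the beta chain of H2-O, the inhibitor of H2-DM. Its partner H2-Oa did not pass, at 6.46 and 5.47 against 7.31 and 5.17 CPM (log2 fold change 0.07). H2-DMb2 stood at 0.06, and H2-Eb2 and the H2-Ea pseudogene were too low to test.

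In the list of antigen processing genes 1 of 10 passed, downward, and the median was -0.44. Ifi30, a thiol reductase that opens disulfide bonds of antigens in lysosomes, fell from 19.8 and 13.0 to 5.08 and 3.85 CPM, by a log2 fold change of -1.87 (SE 0.32, edgeR adjusted p = 0.0427). The lysosomal protease gene Ctsd stood at -0.56 without passing. None of the 7 genes for RFX, NF-Y and Creb1 passed (median 0.09), with Nfyc at -0.72 and Rfx5 at 0.45. The ubiquitin ligase genes March1, which marks class II for removal, and March8 stood at -1.28 and -0.63, and none of 3 turnover genes passed. Among 14 genes upstream of Ciita 1 passed. Ifngr1, the ligand-binding chain of the interferon-gamma receptor, fell from 82.8 and 87.5 to 48.3 and 39.1 CPM, by a log2 fold change of -0.96 (SE 0.17, edgeR adjusted p = 0.0436). Irf2, a factor that can bind the interferon-responsive Ciita promoter, stood at 0.91 without passing. Of 5 tested co-stimulation genes 1 passed, the inhibitory ligand gene Cd274, which rose from 17.3 and 13.5 to 44.2 and 40.1 CPM (log2 fold change 1.45), while Cd86 stood at 0.88. None of 20 MHC class I genes passed (median 0.17), with the chaperone gene Calr at -0.59 and H2-T23 at 0.63.

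Markers of the cells that carry class II were read in the same libraries. B cell markers summed to 305 and 244 CPM under the WT label against 198 and 143 CPM under the KO label. Of 11 tested, 8 lay below 0 and none passed, with the early B lineage factor gene Ebf1 at a log2 fold change of -0.82. Dendritic cell markers summed to 134 and 164 against 215 and 305 CPM with Flt3, which is also a progenitor gene and rose (1.42). Without Flt3, a setting that was not planned, they summed to 56.4 and 74.4 against 34.7 and 37.7 CPM. Of the 8 tested genes other than Flt3, 7 lay below 0, with Clec9a, a lectin of cross-presenting dendritic cells, at -1.33. Itgax stood above 0, at 0.38, and Clec4a4 was at 0 in every library. Monocyte and macrophage markers summed to 390 and 327 against 261 and 247 CPM, with 1 of 11 passing, Ly6c2 (-1.83), and Mrc1 at -1.57. Of these 11, 7 lay below 0 and 4 above, among them the receptor gene Csf1r at 0.55. Most of the monocyte sum came from Lyz2 (216 and 202 against 191 and 121 CPM) and Ly6c2 (90.4 and 48.9 against 21.6 and 17.5 CPM). The next most abundant gene, Ccr2, overlapped between labels, at 18.9 and 33.2 against 10.5 and 50.7 CPM. Plasma cell markers summed to 97.8 and 65.8 against 277 and 226 CPM. Of 7 tested 1 passed, Jchain, which joins antibody units and rose from 13.1 and 7.17 to 192 and 125 CPM (log2 fold change 3.97). Without Jchain, a setting chosen after its values were seen, the sums were 84.7 and 58.7 against 84.9 and 100.9 CPM. Of the 6 tested genes other than Jchain, 5 lay above 0, with Irf4 at 1.14, and only Mzb1 (-1.27) lay below. T and NK cell markers summed to 95.5 and 85.3 against 94.0 and 53.6 CPM. In that list Cd4 rose (1.77) and Ncr1 stood at -2.62. Endothelial and stromal markers summed to 107 and 93.8 against 80.0 and 84.0 CPM, with Cdh5 (-2.94) and Stab2 (-2.42) lower. Of 8 tested 6 lay below 0, while Pecam1, the most abundant, stood at 0.32 and Tek at 0.25. The B cell, dendritic (without Flt3), monocyte and endothelial sums were all lower in both labelled Hira KO libraries, as the chain genes were. The dendritic sum with Flt3 was higher in both. The part of these cells in the class II values was not tested. Among the LSK markers Ly6a (1.57), which encodes Sca1, rose.

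**Figure D3:**
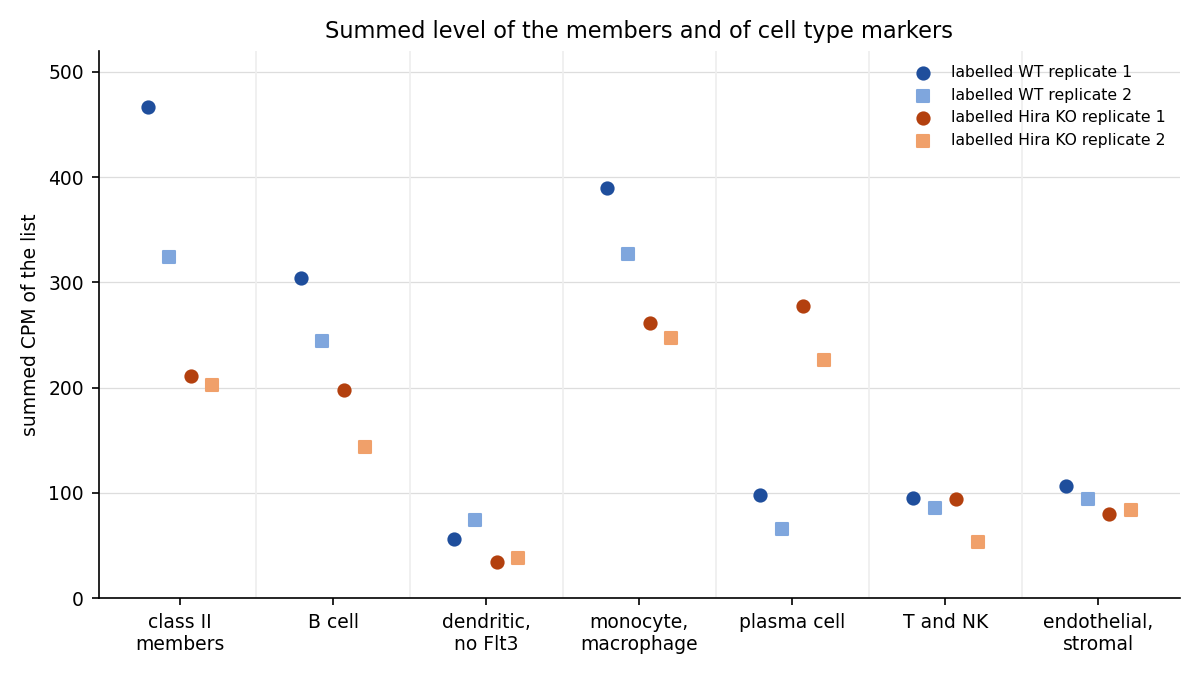
Summed CPM of the 7 members and of lists of cell type markers in the 4 RNA libraries, 1 point per library. The dendritic list is shown only without Flt3, and the LSK list is not shown. The sums of the LSK list and of the dendritic list with Flt3 were higher in both labelled Hira KO libraries. The members, B cell, dendritic (without Flt3), monocyte and endothelial sums lie lower in both labelled Hira KO libraries. Most of the monocyte sum is Lyz2 and Ly6c2. The plasma cell sum lies higher, most of the difference being Jchain.

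The genes whose profile over the 4 RNA libraries was most like that of H2-Aa, H2-Ab1, H2-Eb1 and Cd74 were found by Euclidean distance between centred log2 CPM, among 7936 genes averaging 3 or more in log2 CPM. They were Chd7 (distance 0.229), a chromatin remodeller gene, Gas7 (0.240), Tspoap1 (0.271), the mitochondrial ribosomal protein gene Mrpl20 (0.296) and Aen (0.313), a nuclease gene. H2-Aa lay at 0.308 from the same mean profile, and Cd74 at 0.850. With only 4 libraries many genes share a shape, and Cd74 was farther from this mean than these 5 genes were. Aen had 26.8 and 22.7 CPM against 11.2 and 12.8 CPM, and Chd7 28.4 and 16.0 against 9.53 and 9.86 CPM. Neither passed edgeR's threshold.

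Open chromatin was read from the authors' peak lists, 1 per library, with their fold enrichment over the peak caller's background. The merged lists gave 112479 regions, of which 44 lay within 10 kb of a member's gene body. Labelled WT replicates 1 and 2 called 54.5% and 36.4% of these 44 regions, and labelled Hira KO replicates 1 and 2 called 84.1% and 63.6%. Over all regions the shares were 69.0% and 52.2% against 79.4% and 61.3%. Of the 44, 3 (6.82%) were called in both labelled Hira KO libraries and neither labelled WT library, against 5.64% of all regions. The opposite held for 2 (4.55%), against 2.77% of all regions. Depth behind the lists was unknown, and fold enrichments come from separate lists, so they are given side by side without a test.

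At the boundaries of the chain genes the fold enrichment was higher in the lists labelled Hira KO, the opposite order from the RNA. The region over the H2-Aa promoter printed above (chr17:34287690-34288127) was called in all 4 libraries, with 4.43 and 4.595 under the WT label against 13.5 and 13.0 under the KO label. Within its own list it ranked at percentiles 30.2 and 20.98 under the WT label and at 76.5 and 71.0 under the KO label. These lists differ in length, so the ranks describe each list only. The region over the H2-Eb1 promoter (chr17:34305621-34306029) had 5.20 and 5.25 against 10.7 and 11.7. At the low-coordinate boundary of H2-Ab1 (chr17:34262979-34263556) the values were closer, 12.5 and 9.52 against 14.5 and 14.4. A region 5156 bases from the body of H2-Ab1, inside the noncoding gene Gm20506 (chr17:34257550-34258071), had 4.04 and 5.25 against 12.8 and 12.4. Inside H2-Ab1 the order was not kept. A region called in all 4 libraries (chr17:34264690-34265340) had 4.43 and 3.28 against 4.20 and 4.80, and another (chr17:34264040-34264411) had 5.97 in labelled WT replicate 1 and 9.79 and 5.49 in labelled Hira KO.

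Cd74 lies on chromosome 18 (60803849 to 60812652). The region over its low-coordinate boundary (60803472 to 60804262) had 6.54 and 6.24 under the WT label against 26.1 and 13.0 under the KO label. A region in the gene body (60805593 to 60806174) had 5.20 and 4.27 against 18.6 and 11.0. Another in the body (60807105 to 60807956) was called in both labelled Hira KO libraries, with 15.6 and 9.95, and in neither labelled WT library. All 3 regions were thus stronger or present only in the lists labelled Hira KO.

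Ciita (chromosome 16, 10480014 to 10531064) had 8 regions, all within the gene and none called in all 4 libraries. Labelled WT replicate 1 called 2 of them and labelled WT replicate 2 none, while labelled Hira KO replicates 1 and 2 called 7 and 3. The region at chr16:10521215-10521589 had 3.85 in labelled WT replicate 1 and 6.99 and 7.55 in labelled Hira KO. Its neighbour at chr16:10522834-10523184 had 6.35 in labelled WT replicate 1 and 6.76 and 5.83 in labelled Hira KO, with overlapping values.

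Around H2-DMb1, the promoter region (chr17:34152815-34153400) was called in labelled WT replicate 1 with 4.23 and in labelled Hira KO with 8.39 and 6.86, and was not called in labelled WT replicate 2. The boundary of H2-DMb2 (chr17:34142903-34143491) had 5.58 and 6.56 against 20.05 and 13.4, while a region over the H2-DMb2 promoter printed above was called only in labelled Hira KO replicate 1 (3.73). Within the body of H2-DMa a region called in all 4 libraries (chr17:34135187-34135937) ranked at percentiles 92.4 to 96.9 of its lists, with 55.4 and 53.8 against 66.0 and 75.2. The H2-DMa gene model overlaps Brd2, so the wide region at chr17:34117836-34123059, with 54.5 and 66.3 against 63.9 and 69.7, cannot be assigned to either gene. The 2 regions called only in the labelled WT lists lay beyond Brd2, 8435 and 9330 bases from the H2-DMa body. At H2-Ob, the gene whose RNA rose, a boundary region (chr17:34238677-34238996) had 3.28 in labelled WT replicate 2, no call in replicate 1, and 5.83 and 6.86 in labelled Hira KO. A second region inside H2-Ob was called only in labelled Hira KO, with 4.20 and 4.12.

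**Figure D4:**
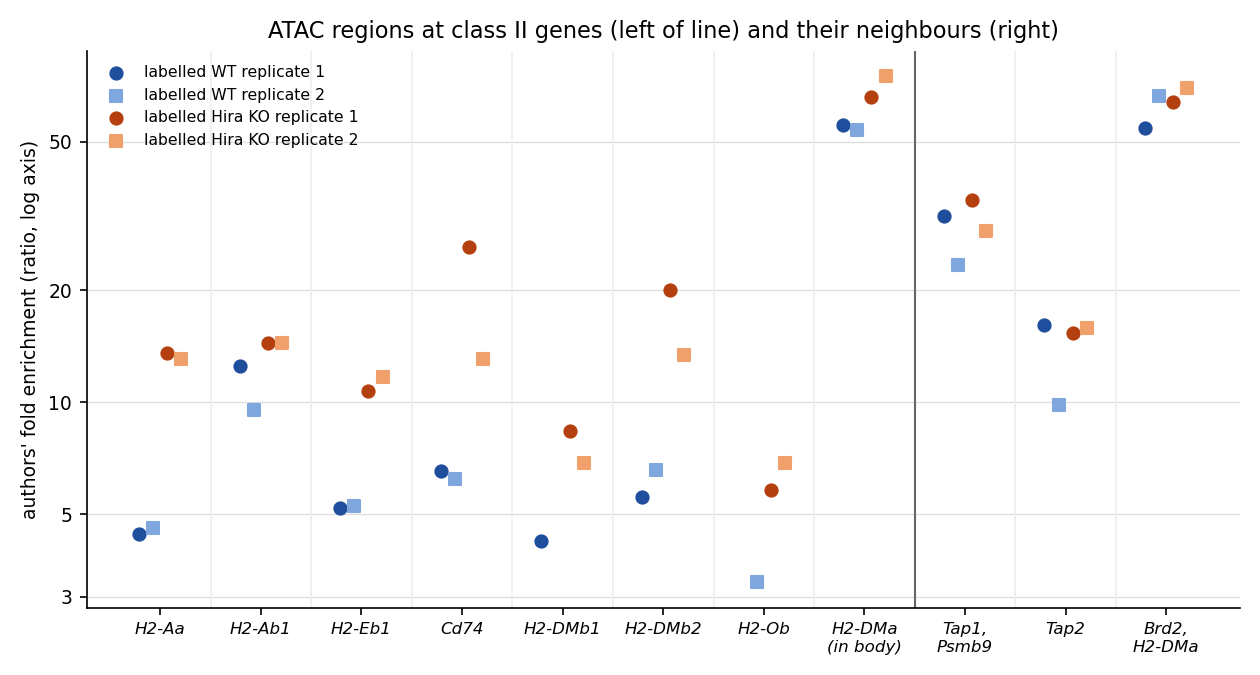
Authors' fold enrichment (ratio, log axis) at 1 region per gene, 1 point per ATAC library that called it, for class II genes left of the line and neighbouring genes right of it. H2-Aa, H2-Eb1, Cd74 and H2-DMb2 have both labelled Hira KO points well above both labelled WT points, whereas Tap1 with Psmb9, Tap2 and Brd2 overlap.

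Of the 11 regions near the members that all 4 libraries called, 8 had both labelled Hira KO values above both labelled WT values, none had them below and 3 overlapped. Among all 45779 regions called in all 4, 24.9% were of the first kind and 17.7% of the second. Some of the 11 lie close together and near more than 1 member, so they are not independent. The medians of the fold enrichment over those 45779 regions were 11.9 and 9.85 under the WT label against 12.1 and 11.7 under the KO label. Nearby genes with other functions gave a reference in the same lists. The region shared by Tap1 and Psmb9, which serve class I presentation, had 31.6 and 23.3 against 35.0 and 28.8, and that at the boundary of Tap2 had 16.2 and 9.85 against 15.4 and 15.8. Both overlapped between labels, but a region in the body of Tap2 (chr17:34205153-34206384) did not, at 13.5 and 12.5 against 17.0 and 21.3.

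At the regions over the boundaries of H2-Aa, H2-Ab1, H2-Eb1 and Cd74, RNA and fold enrichment thus ran in opposite orders between the labels. With RNA read as CPM, they ran in the same order at the H2-Ob boundary, the H2-DMb1 promoter region and the H2-DMa body region chr17:34135187-34135937. Another H2-DMa body region (chr17:34127413-34127874) overlapped between labels. The H2-Ob and H2-DMb1 regions were not called in every labelled WT library. Both orders follow the titles, and a swap of titles in a single assay would reverse this comparison. The labels do not say whether RNA and ATAC libraries with the same number came from the same cells.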

How the data were processed

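RNA libraries were amplified with NuGEN's Ovation kit and prepared with Nextera XT, per the labels' protocols. Per the submitters' processing notes, RSEM 1.3.0, STAR 2.5.3a, HTSeq, DESeq2, MACS2 2.1.1, Bowtie2 2.2.9, Trim Galore 0.4.5, bedtools and GRCm38 are named, with no role stated. The sources used here give neither strandedness nor any shift of ATAC reads. Each RNA file holds the authors' expected count (an estimated count, not normalized) and the authors' TPM (scaled per length and library), per the file headers. Each ATAC file lists 1 library's peaks, with a fold enrichment (ratio) by the authors and the authors' −log10 p-value and q-value, of which the fold was used to describe peaks.

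Gene IDs matched a symbol for 45143 of 45706 genes. Expected counts were rounded and went into edgeR 4.0.16 under R 4.3.3 (TMM, filterByExpr, robust quasi-likelihood F test, genotype label as the only term) on 16258 genes, with Benjamini-Hochberg adjustment. SEs and 95% intervals came from the F statistic. DESeq2 1.42.0 and limma 3.58.1 were alternatives. Peaks sharing an interval were counted once, mitochondrial peaks were left out, and peaks overlapping by 1 bp were merged. Gene bodies came from RefSeq (GRCm38.p6). On simulated counts for this comparison (15779 genes), edgeR called 32% of 50 genes changed 2-fold and 92% of 50 changed 4-fold, with 30 false among 147 calls. Libraries of 1 label differed by more than sampling noise (chi-square per gene 49.1 and 66.2). The members and lists were chosen with earlier results of these data known. Named genes were the members, Hira, each list's called genes and its 2 lowest p-values, and the 5 nearest profiles; some genes that this rule names are not reported here. Kit, the H2-Ea pseudogene and neighbouring genes were added after their values were seen.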

Additional observations from a re-analysis of the deposited data

How the results depend on the processing

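The log2 fold change of each of the 7 members kept its sign under all 12 alternatives. With CPM that did not overlap between labels for any member, a fit without a library could hardly reverse it. Counts of called members were less stable. Members called lower numbered 0 in the main fit and with upper-quartile factors or without mitochondrial genes, 2 by DESeq2, 4 with no low-count filter, 1 with at least 1 CPM in all 4 libraries, and 2 by limma on log2(TPM + 1) and on log2(TPM + 0.1). Leaving out 1 library gave 0 to 1. With the replicate number as a block 1 member was called lower, Cd74 (adjusted p 0.00967). The replicate numbers are only shared numbers (correlation of same-numbered deviations 0.0609). Under this replicate block 368 of 16258 genes were called higher and 169 lower. Over all 16258 tested genes, main counts of 214 higher and 78 lower became 923 and 575 by DESeq2. On the same genes they became 392 and 262 on log2(TPM + 1), and 376 and 246 on log2(TPM + 0.1). The counts were 1206 and 1017 of 29706 genes with no filter, and 374 and 152 of 12692 with the stricter filter. Without 1 library they ran from 1 to 1657 higher and from 1 to 1888 lower. With no filter the median of all genes was 0.13. Other pathway genes, 2 higher and 2 lower in the main fit, became 7 and 5 by DESeq2 and 10 and 7 with no filter. With the stricter filter 5 were higher, and on either TPM scale 1 was. Without 1 library they ran from 0 to 12 higher and from 0 to 7 lower. The cause of these changes was not tested.

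For the labelled Hira KO pair alone, regions near the members numbered 3 of 44, 9 of 95 within 50 kb, and 5 to 14 of 44 with 1 ATAC library left out (11.4% to 31.8%, against 7.21% to 22.8% of all regions). For the labelled WT pair alone they numbered 2 of 44, none (0) of 29 within 2 kb and 4 of 95 within 50 kb. The members' SEs ran from 0.21 (H2-DMa) to 0.44 (H2-DMb1, the member with the fewest counts).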
